A study of Mus musculus with 6 samples.

Results

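The genes described here code for the desmosome, together with Perp. They were all array probes named Dsc2, Dsc3, Dsg2, Dsg3, Dsp, Pkp1, Pkp2, Pkp3, Jup or Perp, which gave 20 probes for 10 genes out of 41174 probes and 27670 genes. RNA was taken from mammary glands of virgin C57/B6 mice, either wild type (WT) or heterozygous for a knockout of ΔNp63 (het), the p63 isoform class without the N-terminal transactivation domain. From each genotype came P4 cells, which are CD24+CD29hi and MaSC enriched (MaSC for mammary stem cell), P5 cells, which are CD24+CD29lo and luminal progenitor enriched, and all mammary epithelial cells (MEC). Each of these 6 groups had 1 array. How many mice were pooled for an array, their age, and the part of the gene removed are not given in the sources used here.

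Desmosomes are adhesive junctions that tie the keratin filaments of neighbouring epithelial cells together. Desmogleins (Dsg) and desmocollins (Dsc) are the cadherins that cross the membrane, plakoglobin (Jup) and the plakophilins (Pkp) are armadillo proteins of the inner plaque, and desmoplakin (Dsp) links that plaque to keratin. Perp is a tetraspan membrane protein needed for stable desmosomes in stratified epithelia, and its gene is a known target of p53 and p63. In the mammary gland, outer basal and myoepithelial cells and inner luminal cells both make desmosomes.

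Every value is log2 of the sample (Cy5) signal over that of a reference RNA from 11 mouse cell lines (Cy3), so 0 means equal to the reference and a step of 1 is 2-fold. It compares samples for the same gene and gives no order of mRNA amount between genes. The scanner software marked 72.1% to 87.7% of an array's spots as well above background in Cy5. The spread among spots of probes printed 10 times on the same array gave a technical SD of 0.14 for a difference. It leaves out variation between arrays, such as that of labelling and hybridization. Differences between populations were tested with limma in an additive fit of population and genotype, in which each population has 2 arrays, and a gene was called where its p, adjusted by Benjamini-Hochberg over all genes, was below 0.05. Spread was measured from the residual with 2 degrees of freedom, since no group had a replicate. For each gene limma moderated it towards a value estimated over all genes, and each SE and p rests on that moderated spread. P4 and P5 arrays shared a slide and both MEC arrays lay on the other, and within a slide position followed genotype. In each population high local backgrounds were more numerous and reached higher values on the WT array than on the het array. In Cy5 they numbered 305, 421 and 466 on the WT P4, P5 and MEC arrays and 201, 181 and 402 on the het arrays. Values with such outlier backgrounds replaced stand beside the results they move.

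Marker genes set P4 apart as basal and P5 as luminal, while enrichment for stem or progenitor cells was not tested. Of 7 basal and myoepithelial markers 7 were called higher in P4 than in P5, and of 9 tested luminal markers 8 were called lower. The brightest probe of Trp63, the gene that encodes p63, read 4.41 and 5.29 on the WT and het P4 arrays, 0.46 and 0.89 on the P5 arrays and 2.78 and 2.65 on the MEC arrays. With outlier backgrounds replaced these values were 5.99 and 5.49, 0.54 and 0.89, and 3.71 and 2.67. The het array was thus the lower of the pair in MEC both ways, the higher in P5 both ways, and changed side in P4. The Trp63 probe A_52_P338796, above background on all 6 arrays, read 0.02 to 0.24 and did not separate P4 from P5. A_52_P17264, above background on 3 arrays, read 0.01 to 0.33. With outlier backgrounds replaced it read 1.08 and 0.48 in P4 and 0.20 and 0.01 in P5. Since the position of the Trp63 probes relative to the deletion is not given in the sources used here, Trp63 does not check the genotype labels.

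All 10 genes passed the filter on dim probes, Dsc3 only through the MEC arrays. Dsc3 stays among the 10 genes counted below, though it was not well above background in P4 or P5. Of the 20 probes, 17 were above background in Cy5 on all 6 arrays. The genes fell into several patterns over the populations. Perp, Pkp1 and Dsp had their highest mean in P4, Dsc2, Dsg2, Jup and Pkp2 in P5, Pkp3 was alike in both, and Dsg3 and Dsc3 stayed near 0. In P4 against P5, 5 of 10 genes were called, 2 higher and 3 lower in P4. Over all genes, 10.5% were called, 5.02% higher and 5.52% lower. The median difference of the 10 genes was -0.03, beside 0.04 over all genes tested. For 7 of the genes both arrays of one population lay beyond both of the other, which held for 46.1% of all genes.

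**Figure D1:**
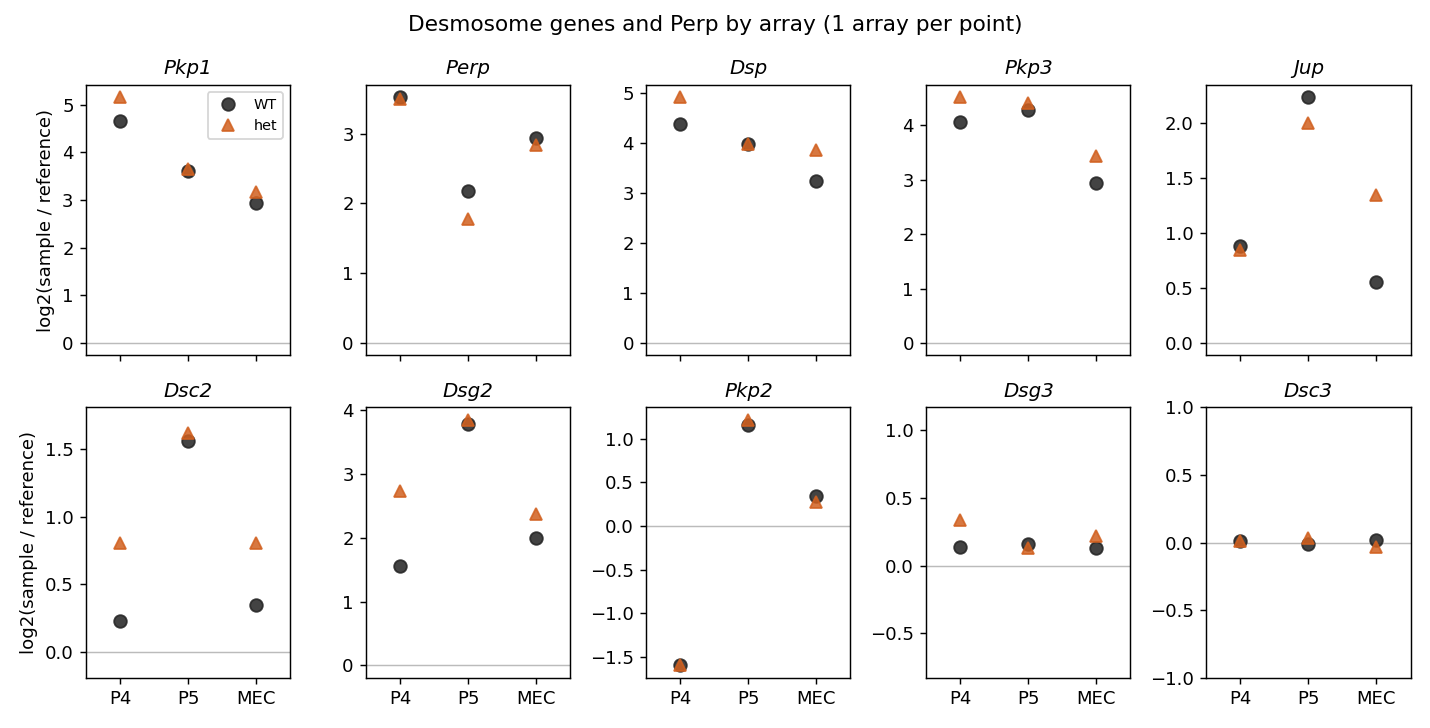
Log2 ratio of sample to reference (y axis, separate scale in each panel) for the 10 genes on the 6 arrays, by population (x axis), with circles for WT and triangles for het and 1 array per point. Perp, Pkp1 and Dsp are highest on the P4 arrays, Dsc2, Dsg2, Jup and Pkp2 on the P5 arrays, and Dsg3 and Dsc3 stay close to 0.

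Perp was clearly higher in P4 than in P5. It read 3.52 and 3.49 on the WT and het P4 arrays, 2.17 and 1.77 on the P5 arrays, and 2.94 and 2.84 on the MEC arrays. No value of one population overlapped another, with MEC between P4 and P5. P4 exceeded P5 by 1.53 (SE 0.14, limma adjusted p = 0.0119), a 2.89-fold difference, and the step was 1.35 in the WT pair and 1.72 in the het pair. The gene had 1 probe, at chr10:18579623-18579682 of mm7 on the plus strand, saturated on none of the arrays. The start of its sequence is shown because all Perp values rest on this probe.
Perp, A_51_P317941, the first 30 bases: gaaaatttgggaatgcgtgtctctgaatac

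Pkp1 (plakophilin 1), which clusters desmoplakin at the plaque and is abundant in stratified epithelia, was also higher in P4 than in P5. It read 4.67 and 5.16 on the WT and het P4 arrays, 3.60 and 3.65 on the P5 arrays, and 2.93 and 3.17 on the MEC arrays. Both P4 arrays lay above both P5 arrays, and both of these above the MEC arrays. P4 exceeded P5 by 1.28 (SE 0.15, limma adjusted p = 0.0178), which is 2.43-fold.

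Pkp2 (plakophilin 2), the plakophilin typical of simple epithelia and heart, ran the opposite way and had the largest difference of the 10 genes. It read -1.60 and -1.59 on the WT and het P4 arrays, 1.16 and 1.22 on the P5 arrays, and 0.34 and 0.28 on the MEC arrays. The genotype pairs were close to each other in each population, and the populations were far apart. P4 stood below P5 by a log2 difference of -2.79 (SE 0.11, limma adjusted p = 0.00609), which is 6.92-fold. The raw Cy5 signals were 274 and 203 in P4 against 3430 and 1870 in P5, over local backgrounds of 32.0 to 38.0, so the low P4 values were measured and not a floor. The distance between the Pkp1 and Pkp2 log2 ratios was 6.27 and 6.75 on the WT and het P4 arrays, 2.45 and 2.43 on the P5 arrays, and 2.58 and 2.89 on the MEC arrays. The 2 plakophilins thus shifted against each other between P4 and P5 on both pairs of arrays. Each had 1 probe, at chr1:135757658-135757717 on the minus strand for Pkp1 and chr16:15815912-15815971 on the plus strand for Pkp2, both in mm7. These are shown because the opposite directions rest on this pair of probes.
Pkp1, A_51_P151732, the first 30 bases: catcttgtatgagaaccttgtgctgaacgg
Pkp2, A_51_P225427, the first 30 bases: tgagtgtgcaccggaggaacacctgagaaa

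Pkp3 (plakophilin 3), found in most epithelia with desmosomes, did not separate P4 from P5. It read 4.07 and 4.52 on the WT and het P4 arrays, 4.28 and 4.42 on the P5 arrays, and 2.94 and 3.44 on the MEC arrays. The P4 and P5 arrays overlapped and all lay above MEC. The difference between P4 and P5 was -0.06 (SE 0.14, limma adjusted p = 0.861), and it turned to 0.22 with outlier backgrounds replaced (adjusted p = 0.356). Its probe lies at chr7:137507588-137507647 of mm7 on the plus strand.

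Among the membrane cadherins, Dsg2 (desmoglein 2), the desmoglein of simple epithelia, was lower in P4. Its brightest probe read 1.56 and 2.74 on the WT and het P4 arrays, 3.78 and 3.85 on the P5 arrays, and 2.0 and 2.38 on the MEC arrays. P4 and P5 did not overlap, while the MEC values lay between the WT and het P4 arrays. The difference was -1.67 (SE 0.29, limma adjusted p = 0.0387), or 3.18-fold. It was -2.22 in the WT pair and -1.11 in the het pair, and shrank to -0.89 (adjusted p = 0.026) with outlier backgrounds replaced.

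Dsc2 (desmocollin 2), the desmocollin of simple epithelia, had the same order. It read 0.23 and 0.81 on the WT and het P4 arrays, 1.56 and 1.62 on the P5 arrays, and 0.35 and 0.81 on the MEC arrays. P5 stood apart, and P4 and MEC overlapped. The difference between P4 and P5 was -1.07 (SE 0.17, limma adjusted p = 0.0311), or 2.10-fold.

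Of the cadherins typical of stratified epithelium, Dsg3 was not called between P4 and P5, and Dsc3 was too dim in both to compare them. Dsg3 (desmoglein 3) was well above background on all 6 arrays, close to the reference, with values between 0.13 and 0.34. With backgrounds as given the populations overlapped (P4 against P5 0.10, SE 0.12, limma adjusted p = 0.716). With outlier backgrounds replaced Dsg3 read 0.40 and 0.39 on the WT and het P4 arrays, and 0.20 and 0.13 on the P5 arrays. The MEC arrays then lay between, at 0.31 and 0.23. No population overlapped another by that treatment, while P4 against P5 stood at 0.23 (SE 0.13, limma adjusted p = 0.292). Its other probe was not well above background in Cy5 on any array. Dsc3 (desmocollin 3) was well above background only on both MEC arrays. Its raw Cy5 signal was 52.2 to 56.7 over local backgrounds of 30.5 to 36.0 on all arrays, so no fold is given.

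Jup (plakoglobin), which binds the cadherin tails in both desmosomes and adherens junctions, was higher on the P5 arrays without passing the test. It read 0.88 and 0.84 on the WT and het P4 arrays, 2.23 and 2.0 on the P5 arrays, and 0.55 and 1.34 on the MEC arrays. The P5 arrays lay above all others, and P4 and MEC overlapped. The difference between P4 and P5 was -1.26 (SE 0.28, limma adjusted p = 0.0643), and -0.80 (adjusted p = 0.182) with outlier backgrounds replaced. The probe lies at chr11:100480420-100480479 of mm7 on the minus strand.

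Dsp (desmoplakin), the obligate plaque protein that holds keratin filaments, tended to the Perp side. Its brightest probe read 4.38 and 4.91 on the WT and het P4 arrays, 3.98 on both P5 arrays, and 3.23 and 3.85 on the MEC arrays. The groups did not overlap. P4 exceeded P5 by 0.66 (SE 0.19, limma adjusted p = 0.11), short of the threshold. With outlier backgrounds replaced the difference was 1.15 (SE 0.16, adjusted p = 0.0141), so that the count became 3 higher and 3 lower, beside 14.9% of all genes called by that treatment, 7.48% higher and 7.4% lower.

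**Figure D2:**
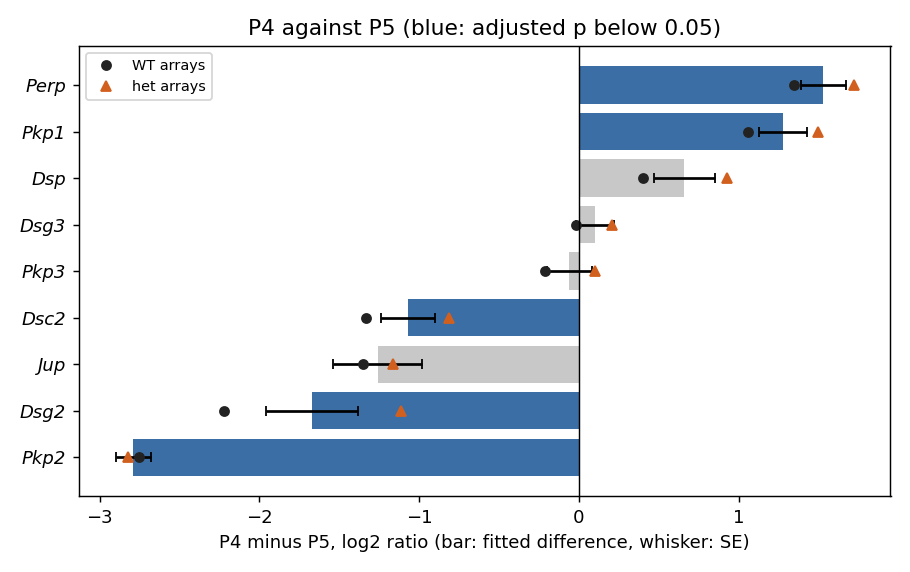
Fitted P4 minus P5 difference in log2 ratio (x axis) with its SE as a whisker, for 9 genes without Dsc3 (y axis), and the WT pair (circles) and het pair (triangles) of arrays. Blue bars passed an adjusted p of 0.05: Perp and Pkp1 are to the right of 0, and Dsc2, Dsg2 and Pkp2 to the left.

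Leaving out any 1 of the 4 sorted arrays ended every call in P4 against P5 and in both comparisons with MEC, over all genes as well as these. For Perp the difference stayed between 1.36 and 1.70 in those fits and its adjusted p lay between 0.0709 and 0.162. The calls of Dsg2 and Dsc2 were less firm. Dsg2 was not called with the mean over its probes (-0.75, limma adjusted p = 0.0671), the scanner software's ratio (-0.84, adjusted p = 0.075) or Cy5 alone (-0.50, adjusted p = 0.0713). Dsc2 was not called with the mean over its probes (-1.13, adjusted p = 0.0713), median centring in place of loess (-1.0, adjusted p = 0.0727) or Cy5 alone (-0.60, adjusted p = 0.0669). In bulk samples such as these, fewer cells of a type and less RNA per cell cannot be told apart.

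The genes with several probes showed how far a value rests on its probe. The 3 Dsc2 probes gave P4 minus P5 differences of -1.07, -1.07 and -1.26. By genotype in P5 they differed, with het minus WT at 0.06 for the probe used and -0.74 and -0.43 for the others, and at -0.26, -1.29 and -1.28 with outlier backgrounds replaced. The 5 Dsg2 probes gave -0.23 to -1.67, all below 0, and the probe A_52_P96159 turned to 0.49 with outlier backgrounds replaced. That probe also read otherwise by genotype, at 0.61 and 2.44 on the WT and het P4 arrays, 1.02 and 2.49 on the P5 arrays and 0.28 and 1.15 on the MEC arrays. It was the higher on the het array of each pair, by 0.72, 0.96 and 0.31 with outlier backgrounds replaced, whereas the Dsg2 probe used above then stood at -0.37, -0.61 and -0.83. It was singled out after its values were seen, and the difference between the probes was not tested.

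The 4 Dsp probes split into a bright and a dim pair. A_51_P101460 (chr13:37617147-37617206) and A_52_P242544 (chr13:37616760-37616819), both on the plus strand of mm7, gave 0.66 and 0.52 for P4 minus P5. A_52_P549815 (chr13:37614684-37614743) and A_51_P201884 (chr13:37612506-37613605), which lie at lower coordinates, gave -0.05 and -0.03. With outlier backgrounds replaced the bright pair gave 1.15 and 0.98, and the dim pair 0.46 and 0.18. On the WT P4 array the raw Cy5 signals of the bright pair were 5630 and 3760, and those of the dim pair 108 and 62.8, over local backgrounds of 32.5 to 38.0. A_51_P201884 was above background on 3 of 6 arrays. The probes are shown in order of rising coordinate, since the pairs at the higher and the lower coordinates differed so much in raw signal. The last is given by its first 30 bases.
Dsp, A_51_P201884: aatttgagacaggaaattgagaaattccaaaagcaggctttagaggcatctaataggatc
Dsp, A_52_P549815: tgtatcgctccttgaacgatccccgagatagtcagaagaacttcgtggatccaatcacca
Dsp, A_52_P242544: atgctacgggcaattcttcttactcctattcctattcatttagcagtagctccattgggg
Dsp, A_51_P101460, the first 30 bases: aaattacactgactactggtggcttagtac

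**Figure D3:**
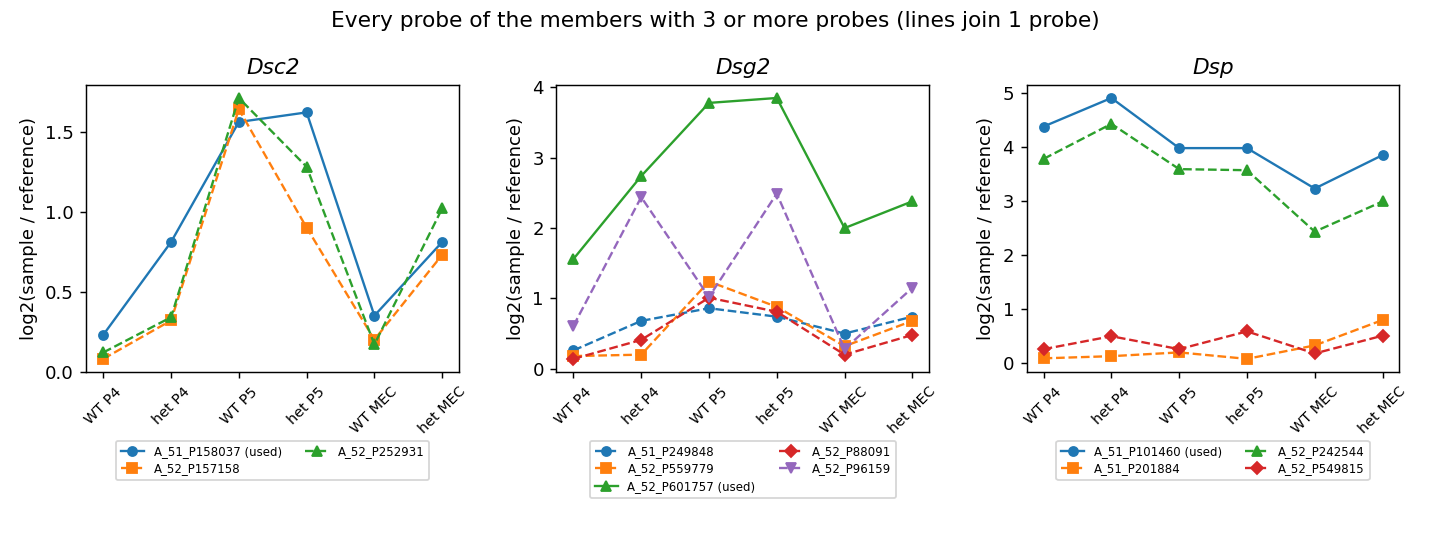
Log2 ratio of sample to reference (y axis) on each of the 6 arrays (x axis) for every probe of Dsc2, Dsg2 and Dsp, a solid line marking the probe used and lines joining values of the same probe. All 3 Dsc2 probes are higher on the P5 than on the P4 arrays but spread from 0.90 to 1.62 on the het P5 array, and 2 Dsp probes stay below 1 on every array.

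Against total MEC, population and slide cannot be told apart, and markers of stromal cells read higher on the MEC arrays. Fibroblast markers had a median log2 ratio of 2.05 and 1.33 on the WT and het MEC arrays, against -2.07 and -1.06 in P4 and -3.67 and -2.57 in P5. For endothelial markers the medians were 3.16 and 3.49 in MEC, 0.43 and 1.14 in P4 and 0.38 and 0.86 in P5. Their part in the differences from MEC was not tested.

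In the fit of P4 against MEC, 4 of 10 genes were called, 3 higher and 1 lower, where 6.84% of all genes were, 2.75% higher and 4.09% lower. The replacement of outlier backgrounds gave 5 calls, beside 17.7% of all genes. Pkp1 was higher by 1.86 (SE 0.15, limma adjusted p = 0.0219), which median centring in place of loess reduced to 0.63 (adjusted p = 0.0923). Pkp3 was higher by 1.10 (adjusted p = 0.0313) and Dsp by 1.10 (adjusted p = 0.048), but with median centring both turned, to -0.13 and -0.02. The Dsp call was also lost with the mean over its probes (0.52, limma adjusted p = 0.123) and with normexp offset 0 (0.99, adjusted p = 0.0517). It was lost as well with no filter on dim probes (adjusted p = 0.0554) and without WT MEC (0.92). Pkp2 was lower, at -1.91 (SE 0.11, adjusted p = 0.0202). Perp stood at 0.62 (adjusted p = 0.0803), was called with outlier backgrounds replaced (0.67, adjusted p = 0.0315), and turned to -0.71 with median centring.

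In P5 against MEC, 3 of 10 genes were called, 2 higher and 1 lower, where 3.93% of all genes were, 0.919% higher and 3.01% lower. With outlier backgrounds replaced 5 were called, beside 6.07% of all genes. Pkp3 was higher by 1.16 (SE 0.14, limma adjusted p = 0.0315) and Pkp2 by 0.88 (SE 0.11, adjusted p = 0.0344), which median centring turned to -0.09 and -0.32. Both calls were also lost with the scanner software's ratio, for Pkp3 at 1.0 (adjusted p = 0.0506) and for Pkp2 at 0.94 (adjusted p = 0.0501). The Pkp2 call was lost without het MEC too (0.83). Perp was lower, at -0.92 (SE 0.14, adjusted p = 0.0494), and at -2.25 with median centring. That call was lost with the scanner software's ratio (-0.96, adjusted p = 0.0505), with no filter on dim probes (adjusted p = 0.0538), with Cy5 alone (-0.54, adjusted p = 0.0702), without WT MEC (adjusted p = 0.0608) and without het MEC (adjusted p = 0.0737). Dsg2 stood at 1.63 (adjusted p = 0.064), Jup at 1.17 (adjusted p = 0.104) and Dsc2 at 1.01 (adjusted p = 0.055). The P4 and P5 comparisons share the MEC arrays.

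The genotype comparison asks what loss of a ΔNp63 allele does to these genes. Over the populations, limma called 0 of the 10 genes and 0 of 24692 genes (0%), with 2 and 5163 at an unadjusted p under 0.05. The smallest adjusted p over all genes was 0.206. Those 2 were Dsc2, at 0.36 in het against WT (SE 0.14, adjusted p = 0.237), and Pkp3, at 0.36 (SE 0.11, adjusted p = 0.212). With outlier backgrounds replaced they stood at -0.03 and 0.07. Perp stood at -0.18 (SE 0.12, adjusted p = 0.424), and at -0.30 with outlier backgrounds replaced (adjusted p = 0.315). It stood at -1.27 with median centring (adjusted p = 0.0286), a setting that called 31.7% of all genes. Genotype and position on the slide cannot be told apart.

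Within a population the comparison is 1 array against 1, with no test. Over 9 genes, leaving out Dsc3, het stood above WT by a median of 0.45 in P4, 0.05 in P5 and 0.38 for MEC, where the medians over all genes were 0.11, 0.07 and 0.04. With outlier backgrounds replaced the medians of the 9 genes were -0.05, -0.22 and -0.04. The direction for the genes as a set thus depended on the treatment of the background. The fitted noise of the Cy5 background (normexp SD) moved with genotype. It was 103 and 14.8 on the WT and het P4 arrays, 17.9 and 1.54 on the P5 arrays and 71.1 and 3.43 on the MEC arrays, and 1.12 to 1.47 on all arrays after the replacement.

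By the probes used, only Dsg2 in P4 was at least 2-fold apart, 1.19 higher in het. Of all genes 6.02% were so in P4 (5.91% higher in het), 3.08% in P5 and 2.71% for MEC. Replacement of outlier backgrounds turned the Dsg2 value to -0.37, and the scanner software's ratio gave -0.38. Jup in P4 went from -0.04 to -1.03 by the replacement and -1.09 in the scanner software's ratio, beside 4.03% of genes 2-fold apart in P4 after the replacement, 0.459% lower in het. Jup had a single probe. In MEC Jup stood the other way, at 0.80, or 0.34 with outlier backgrounds replaced.

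Perp was lower on the het array in each population, by values of -0.04 in P4, -0.40 in P5 and -0.09 for MEC, or -0.26, -0.42 and -0.23 with outlier backgrounds replaced. The P5 value exceeded the technical SD of 0.14, but that SD comes from spots within an array. No spread between arrays of the same group or between mice is available. Pkp2 stayed within 0.07 in each population, or 0.22 with outlier backgrounds replaced. Pkp1 went from 0.49 in P4, 0.05 in P5 and 0.24 for MEC to 0.10, -0.03 and -0.04. Dsp went from 0.53, 0.00 and 0.62 to -0.40, -0.22 and 0.06.

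**Figure D4:**
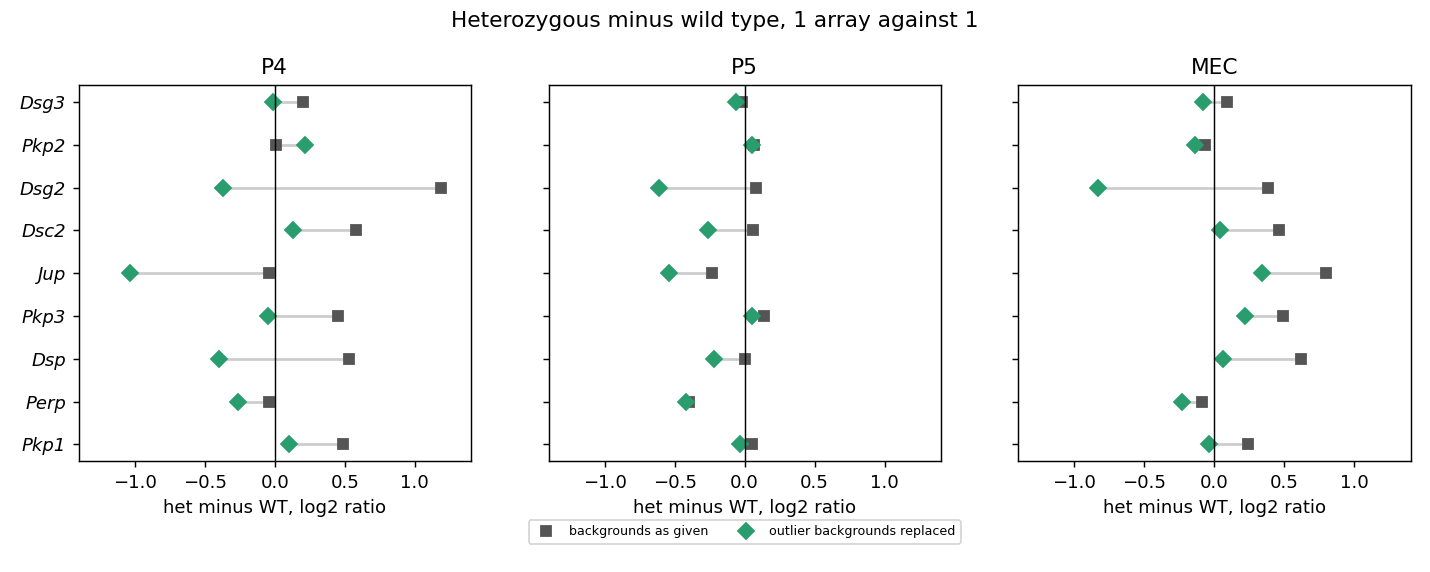
Het minus WT difference in log2 ratio (x axis) for 9 genes (y axis) in P4, P5 and MEC, 1 array against 1, with backgrounds as given (squares) and with outlier backgrounds replaced (diamonds). In P4 Dsg2 moves from 1.19 to -0.37 and Jup from -0.04 to -1.03, while Perp is below 0 in all panels both ways.

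Other genes of cell junctions were read from lists. Of 11 other desmosomal and plaque genes 2 were called higher in P4 than in P5 and 2 lower, with a median of -0.04. The replacement of outlier backgrounds left 1 higher and 2 lower. Of all genes 10.5% were called between P4 and P5, and 14.9% after that replacement. Pkp4, a plakophilin relative also found at adherens junctions, was higher by 1.69 (limma adjusted p = 0.011). The plakin Evpl (envoplakin) was lower at -3.07 (adjusted p = 0.011), and its partner Ppl (periplakin) at -1.37 (adjusted p = 0.0177). Tmem47 was higher by 0.60 (adjusted p = 0.0472), and not called with outlier backgrounds replaced (0.97, adjusted p = 0.0556). Dsg1a and Dsc1, cadherins of the outer epidermis, stood at -0.06 and -0.04 in the same comparison, with log2 ratios of -0.08 to 0.33 on the 6 arrays, and Dsg1a was well above background on none of the sorted arrays. These 2 were also named after their values were seen.

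Of 12 adherens junction genes 5 were called higher in P4 and 2 lower, with a median of 0.01. Nectin3, an adhesion receptor, was higher by 3.25 (limma adjusted p = 0.0139), Cdh3 (P-cadherin) by 2.07 (adjusted p = 0.0121), Nectin1 by 1.97 (adjusted p = 0.0132), Cdh2 (N-cadherin) by 1.71 (adjusted p = 0.0369) and Vcl (vinculin) by 1.01 (adjusted p = 0.0367). Afdn (afadin), which anchors nectins, was lower at -1.41 (adjusted p = 0.0136) and Nectin2 at -0.94 (adjusted p = 0.0254). Cdh1 (E-cadherin), named after its values were seen, stood at -1.38 (adjusted p = 0.0503).

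Of 11 keratins, the filaments that desmosomes anchor, 4 were called higher in P4 and 4 lower, with a median of 0.01. The higher ones were Krt5 by 3.14 (limma adjusted p = 0.00911), Krt17 by 2.96 (adjusted p = 0.00747), Krt14 by 2.44 (adjusted p = 0.00747) and Krt15 by 2.08 (adjusted p = 0.0169), keratins of basal cells. The lower ones were the simple epithelial keratins Krt19 at -3.76 (adjusted p = 0.0156), Krt18 at -3.66 (adjusted p = 0.0174), Krt8 at -3.03 (adjusted p = 0.0375) and Krt7 at -2.66 (adjusted p = 0.0198). Of 12 markers of skin keratinocytes 1 was called, Sbsn, which was lower (-1.54, adjusted p = 0.0166). Their median log2 ratio was 0.05 to 0.37 on the 6 arrays.

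Perp was also read beside 16 other targets of the p53 family. Of these, 2 were called higher in P4 than in P5 and 2 lower, with a median of -0.23. With outlier backgrounds replaced 5 were called higher and 4 lower, where the share called over all genes rose from 10.5% to 14.9%. Phlda3, an inhibitor of Akt signalling, was higher by 4.11 (limma adjusted p = 0.011) and the death receptor Fas by 1.12 (adjusted p = 0.0158). Plk2, a kinase, was lower at -1.23 (adjusted p = 0.0312), and Bbc3 (Puma), a killer protein of the Bcl-2 family, at -0.99 (adjusted p = 0.0229). By genotype the lowest adjusted p among them was 0.206, for Eda2r at -0.54.

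The genes whose pattern over the 6 arrays was most like that of Perp, out of 8250 genes with enough spread, were Pxk (Pearson r = 0.999), Dag1 (0.992), Rab22a (0.992), Mcam (0.991) and Kti12 (0.991). Dag1 is dystroglycan, a laminin receptor, and Mcam an adhesion protein of the immunoglobulin family. Trp63, by its brightest probe, ranked 208 of these genes with r = 0.95, and Pkp2 stood at -0.93. The arrays share slides and the reference RNA and fall into 3 populations, so these values describe the pattern and carry no test.

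RefSeq promoters (GRCm38.p6) were found for 2 of the 10 genes, Dsp and Jup, and the 250 bases before the start were searched on both strands. The motifs were the p53 family half-site (RRRCWWGYYY), AP-1 (TGANTCA) and the GC box (GGGCGG). In these, R is A or G, W is A or T, Y is C or T and N is any base. They are shown because p63 binds the first of these. Neither gene passed the test between P4 and P5 with backgrounds as given. Dsp, on the plus strand at chr13:38151044-38151293, held 1 p53 family half-site, 0 AP-1 and 4 GC box matches. Jup, on the minus strand at chr11:100397791-100398040, held 0, 0 and 2. Of 32851 promoters of that length 7.13% held the p53 family half-site, 6.75% AP-1 and 32.7% the GC box. Capitals mark the matches.
Dsp promoter: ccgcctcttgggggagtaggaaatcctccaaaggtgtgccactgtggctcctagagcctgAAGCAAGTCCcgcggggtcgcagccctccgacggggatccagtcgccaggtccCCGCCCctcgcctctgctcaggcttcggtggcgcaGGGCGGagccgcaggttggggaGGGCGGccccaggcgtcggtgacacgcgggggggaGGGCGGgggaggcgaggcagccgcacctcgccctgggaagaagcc
Jup promoter: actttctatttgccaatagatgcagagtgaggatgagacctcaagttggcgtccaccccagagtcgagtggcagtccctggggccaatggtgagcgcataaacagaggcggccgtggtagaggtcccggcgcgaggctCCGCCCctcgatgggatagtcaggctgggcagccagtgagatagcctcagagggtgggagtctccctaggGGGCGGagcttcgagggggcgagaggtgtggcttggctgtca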

How the data were processed

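The arrays were Agilent whole mouse genome 2-colour arrays read with Feature Extraction 9.5.3.1, per the submitters' processing notes. The authors deposited raw intensity per spot (mean signal and median local background of each channel) without normalization, and, per the file headers, a log10 ratio (Cy5 over Cy3) that the software had already background-subtracted and dye-normalized. The series table that was deposited holds log2 ratios, which followed the log10 ratios with correlations across probes of 0.988 to 0.999. Its column medians were -0.04 to 0.10 and its direction is sample over reference, while its centring is not stated. Probe positions are those of the file's mm7 annotation.

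Signals were corrected with normexp (offset 50, which pulls the ratios of dim probes towards 0), normalized by loess within each array and averaged per probe. In the loess, control spots (1639 per array) and flagged spots (125 to 310 per array) were given weight 0. The tools were limma 3.58.1, jsonlite version 2.0.0 and data.table version 1.17.8 under R 4.3.3. A probe was kept if it was well above background on 2 or more of 6 arrays in Cy5, and the brightest stood for its gene. Of 27670 genes 24839 passed, and 24692 without a missing value were fitted. Local backgrounds more than 3 median absolute deviations above their array's median (1976 in Cy5, 674 in Cy3) were replaced in an alternative. Figures used matplotlib 3.10.9. On simulated shifts of 1, 2 and 3 between P4 and P5, 40.5%, 97.5% and 99.5% of 200 genes were recovered among 24692. False calls numbered 8, 21 and 13. The simulated noise was independent between genes and held no effect of genotype or slide, so these rates need not hold for the data. Precision is limited by the number of arrays.

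The genes, the lists and the tests were chosen with earlier results of these data known. All 10 genes are named, from the lists those past the threshold or of the largest difference, and for Perp the 5 most correlated genes with at least 0.5 of its SD. In all, 17 settings were tried, 16 of them planned.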

Additional observations from a re-analysis of the deposited data

How the results depend on the processing

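No pairing of arrays by animal was possible because each group had 1 array and the labels carry no replicate numbers. The additive fit did compare populations within genotype, averaged over the genotypes. Slide is absorbed by the population term. Of the differences between P4 and P5, those of Perp, Pkp1, Dsp, Jup, Dsc2, Dsg2 and Pkp2 kept their direction under each of 17 settings, and Perp, Pkp1 and Pkp2 lost their call only in the fits without 1 of the 4 sorted arrays. Values below are log2 differences or counts of the 10 genes called, with the main value given in the report. The cause of each change was not tested.

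In P4 against P5 the mean over probes called 3 genes (9.04% of all genes). Pkp3 stood at 0.22 with outlier backgrounds replaced, and 0.10 both with the scanner software's ratio and with the deposited table. Leaving out an array gave -0.22 to 0.11 for Pkp3.

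In P4 against MEC median centring called 1 gene (28.3% of all genes), and with outlier backgrounds also replaced, a setting chosen after seeing the data, 2 (66.5%). Outlier backgrounds replaced gave Dsc2 0.07, Dsg2 0.44 and Jup 0.28. For these genes the scanner ratio and the deposited table both gave 0.12, 0.05 and 0.37, and Cy5 alone gave 0.01, 0.25 and 0.05. The mean over probes gave Dsg2 0.05. Median centring gave Dsg3 -0.08, Dsp -0.02, Perp -0.71 and Pkp3 -0.13, and with outlier backgrounds replaced -0.27, -0.13, -1.07 and -0.37. Leaving out an array gave Dsc2 -0.21 to 0.10, Dsg2 -0.52 to 0.44, Dsg3 -0.02 to 0.15 and Jup -0.55 to 0.38.

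In P5 against MEC 5 genes were called with outlier backgrounds replaced (6.07% of all genes) and 5 with offset 0 (6.42%), 1 with the scanner ratio (6.5%), 1 with the deposited table (6.49%), and 6 with replacement and median centring (58.0%). Median centring gave Dsp -0.59, Pkp1 -0.65, Pkp2 -0.32 and Pkp3 -0.09, and with replacement -0.76, -0.74, -0.36 and -0.17. Cy5 alone gave Dsg3 0.27 and Dsp -0.13. Leaving out an array gave Dsg3 -0.12 to 0.05.

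By genotype over populations offset 0 called 1 gene, Dsg2 (1.66% of all genes), and median centring 3, Perp, Pkp1 and Pkp2 (31.7%). Replacement gave Dsc2 -0.03, Dsg2 -0.60, Dsg3 -0.05, Dsp -0.19 and Jup -0.41. The scanner ratio and the deposited table gave Dsg2 -0.50, Dsg3 -0.02, Dsp -0.18, Jup -0.33 and Pkp2 -0.09. Median centring gave Perp -1.27, Dsg3 -0.06, Dsp -0.50, Jup -0.02, Pkp1 -0.76, Pkp2 -0.93 and Pkp3 -0.66. With replacement it gave Dsg2 -0.57, Dsg3 -0.03, Dsp -0.54, Jup -0.32, Pkp1 -0.45, Pkp2 -0.37 and Pkp3 -0.38. Cy5 alone gave Dsg2 -0.34, Dsg3 -0.04, Dsp -0.22, Jup -0.26, Pkp1 -0.29, Pkp2 -0.05 and Pkp3 -0.09. Offset 0 gave Pkp2 -0.03, and the P4 and P5 arrays alone gave Jup -0.13. Leaving out an array gave Pkp2 -0.03 to 0.04 and Jup -0.13 to 0.38.

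The median het minus WT difference in P4, P5 and MEC was -0.05, -0.22 and -0.04 with replacement, -0.14, -0.13 and 0.00 with the scanner ratio and the deposited table, and -0.30, -0.28 and 0.05 with Cy5 alone. Median centring gave -0.90, -0.66 and 0.06, where it moved the median of all genes in P4 from 0.11 to -0.37, and -0.50, -0.51 and -0.16 with replacement. Offset 0 gave 0.54 in MEC. Dsg2 in P4 stood at -0.37 with replacement, -0.38 with the scanner ratio and the deposited table, -0.13 with Cy5 alone and -0.28 with replacement and median centring.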
